A study of Mus musculus with 6 samples.

Results

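The genes described here are 42 genes of proliferation, DNA replication and mitosis, chosen by name as a fixed list and found in the deposited count table by their human Ensembl identifiers. All 42 were among the 60649 genes of the table and all 42 passed the filter on low counts (at least 10 reads summed over the tumors) that 24545 genes passed. RNA was sequenced from 6 flank xenografts of LAPC-4, a human hormone-sensitive prostate cancer cell line with wild-type androgen receptor, grown in male CB.17 scid/scid mice, a strain without functional B and T cells, bought at 6 to 8 weeks of age. All mice ate a HiGI (high glycemic index) Western diet until tumors averaged 200 mm3, and were then randomized to stay on it (HiGI tumors 16, 20 and 26) or to change to a LoGI (low glycemic index) Western diet (LoGI tumors 19, 27 and 28). The predominant carbohydrate was sucrose in the HiGI diet and Hylon-VII, a high-amylose starch, in the LoGI diet. One cell line and 3 tumors per diet limit the model, all tumors were harvested at the same target volume, and the host cells of each tumor are mouse cells.

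A dividing cell commits to a new cycle when D- and E-type cyclins release E2F transcription factors from the retinoblastoma protein. E2F activity then raises the genes that license origins, build the replication fork and supply nucleotides. Later, FOXM1 and related factors switch on the cyclins, kinases, kinetochore proteins and spindle motors of mitosis, so that the RNA of these genes in bulk tissue tracks the share of cycling cells. In bulk RNA, fewer cycling cells and less of these RNAs per cycling cell cannot be told apart. In prostate cancer, MKI67 encodes the Ki67 antigen that is stained to score proliferation, which the study also did on these xenografts.

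Library totals lay between 18749813 and 21550812 reads, and TMM factors, which correct for library composition, between 0.964 and 1.03. Together the 42 genes took between 0.463% and 0.544% of the reads of a library. Every gene but NUSAP1 had between 87 and 11796 reads in each tumor. Levels below are CPM, which are counts scaled to library size and TMM factor and not divided by gene length, so that they are compared between tumors and not between genes. Pairs of tumors of one diet differed by more than sampling noise (chi-square per degree of freedom from 4.91 to 12.5, where a repeated library gives about 1), and each tumor was counted as 1 replicate.

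The diets differed little in these genes. The question here was whether carbohydrate quality changed the proliferation program of the tumor cells. The study's threshold asks for an adjusted p below 0.05 and a 2-fold difference (1 on the log2 scale). The adjusted p here is from the quasi-likelihood F-test of edgeR, with the Benjamini-Hochberg method applied across all genes tested. By that threshold 0 of the 42 genes were lower and 0 were higher in LoGI tumors, where 3.38% of all genes tested were lower and 0.0733% higher. At an unadjusted p below 0.05 in the edgeR test, 6 of the 42 (14.3%) were lower and 0 higher. Over all genes tested these shares were 8.98% and 4.33%. With no minimum fold change, 1 gene, MCM5, was lower and 0 were higher at an adjusted p below 0.05, against 4.36% and 0.367% of all genes tested. Among the 11038 genes with a mean CPM at or above that of CCNE2 (6.10), the lowest member but NUSAP1, 3.53% were lower. The DESeq2 Wald test also called 1 of the 42, again MCM5, against 4.46% of the genes for which it gave an adjusted p. The intervals of the differences were narrow. The 95% interval from DESeq2 lay within a 1.5-fold change in either direction for 40 of the 42 genes and within a 2-fold change for 41, with MCM5 outside the first limit and NUSAP1 outside both.

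The log2 fold change of LoGI over HiGI tumors was below 0 for 32 genes (76.2%) and above 0 for 10. Its median was -0.056, a level 3.84% lower, and single genes ran from -0.38 to 0.18. Over all genes tested the median was 0.0034 and 49.5% of genes were below 0, and over the 11038 genes at or above the CPM of CCNE2 the median was 0.016 and 45.6% were below 0. The size of the lean of the 42 genes toward lower values, though not its direction, depended on single LoGI tumors. Without LoGI tumor 19, 23 of the 42 were below 0 and the median was -0.0099, against -0.0042 for all genes tested. Without LoGI tumor 28, 29 were below 0 and the median was -0.013, against -0.0046 for all genes tested. Without LoGI tumor 27, 40 were below 0 and the median was -0.16. With a HiGI tumor left out, from 28 (without HiGI tumor 26) to 37 were below 0. The median of the 42 genes stayed below 0 and below that of all genes tested in each of these fits.

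**Figure D1:**
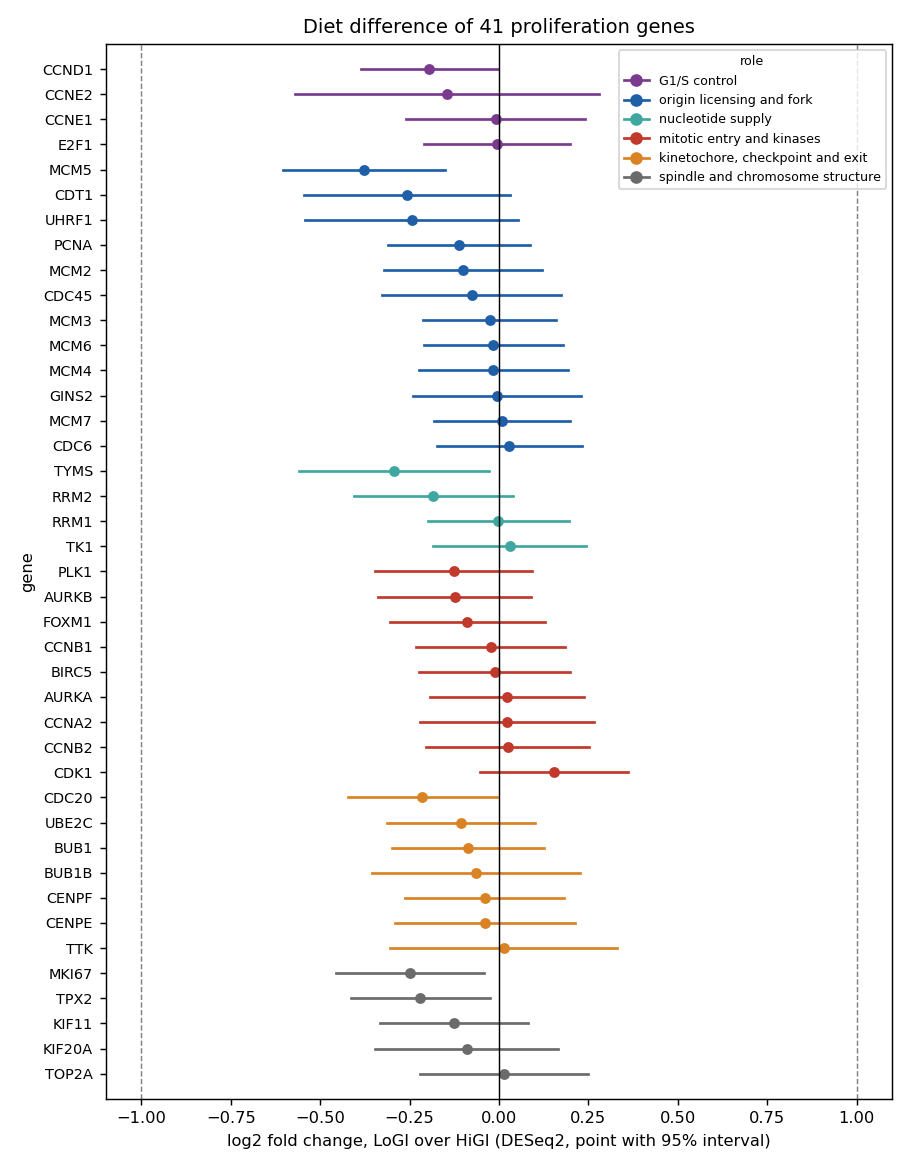
Log2 fold change of LoGI over HiGI tumors (x axis) for 41 of the 42 genes (y axis), as the DESeq2 estimate (point) with its 95% interval (line), colored by role and sorted within each role. NUSAP1 (interval -1.11 to 1.47) is left out, and the dashed lines mark a 2-fold change. All intervals shown lie inside those lines, between -0.60 and 0.36, and MCM5 lies farthest to the left.

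For 4 of the 42 genes (9.52%) the 3 LoGI tumors all lay below the 3 HiGI tumors, against 10.9% of all genes tested and 9.87% of the 11038. The reverse held for 0 of the 42, against 7.59% and 10.4%. The 4 genes were MCM5, MKI67, TPX2 and CCND1.

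The genes of G1/S control comprised cyclin D1, both E cyclins and E2F1. CCND1 (ENSG00000110092.4) encodes cyclin D1, the partner of CDK4 and CDK6 that links growth signals to the cycle. Its level was 264, 223 and 221 CPM in HiGI tumors 16, 20 and 26 and 209, 202 and 205 CPM in LoGI tumors 19, 27 and 28. HiGI tumor 16 stood above the rest, the diets did not overlap, and the LoGI tumors were within a narrow range. The log2 fold change of CCND1 was -0.20 with a DESeq2 standard error of 0.098, and its adjusted p was 0.328 in the edgeR quasi-likelihood test. Without HiGI tumor 16 the log2 fold change was -0.11. With NUSAP1 left aside, CCND1 was one of 3 genes, with CCNE1 and CDT1, in which LoGI tumor 27 was not the highest of its diet.

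CCNE1 (ENSG00000105173.14) and CCNE2 (ENSG00000175305.18) encode the E cyclins, which activate CDK2 at the start of S phase. CCNE1 had 28.6, 33.3 and 32.8 CPM in the HiGI tumors and 27.5, 32.2 and 34.0 CPM in the LoGI tumors, in the same order of tumors. CCNE2 had 7.54, 6.07 and 5.64 CPM in the HiGI tumors and 5.98, 6.79 and 4.57 CPM in the LoGI tumors. The diets overlapped for both, and neither E cyclin passed the test. The ratio of CCNE1 to CCNE2 ranged from 3.79 in HiGI tumor 16 to 7.45 in LoGI tumor 28, with the diets overlapping, and CCNE2 rested on 87 to 164 reads per tumor. E2F1 (ENSG00000101412.13), the transcription factor that activates S-phase genes, had 162, 178 and 194 CPM in the HiGI tumors and 162, 187 and 181 CPM in the LoGI tumors, with a log2 fold change of -0.011 and a 95% interval of -0.21 to 0.20 from DESeq2.

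Origin licensing and the replication fork were represented by 12 genes, of which 10 were below 0 and 1 passed the adjusted test. MCM5 (ENSG00000100297.16) encodes a subunit of the MCM2-7 helicase, the ring that opens DNA at replication origins. Its level was 96.2, 107 and 96.7 CPM in HiGI tumors 16, 20 and 26 and 64.9, 83.3 and 81.7 CPM in LoGI tumors 19, 27 and 28. All LoGI tumors lay below all HiGI tumors, and LoGI tumor 19 was the lowest. The mean was 99.9 ± 5.95 CPM (SD, n = 3) on the HiGI diet and 76.6 ± 10.2 CPM (SD, n = 3) on the LoGI diet. MCM5 fell by 0.38 on the log2 scale (standard error 0.12 from DESeq2), with an adjusted p of 0.0484 in the edgeR quasi-likelihood test, just under the threshold. The call was lost in 5 of the 6 fits that each left out a tumor, namely without HiGI tumor 16, 20 or 26 and without LoGI tumor 19 or 27, with adjusted p from 0.0626 to 0.294 in the edgeR test, and remained only without LoGI tumor 28, at 0.0400. With all 6 tumors it was also lost with DESeq2 size factors, upper-quartile normalization and the filterByExpr filter, at adjusted p of 0.0551, 0.0696 and 0.0509 in the edgeR test. It was kept with library totals only and with a filter of at least 1 read, at adjusted p of 0.0200 and 0.00467 in the edgeR quasi-likelihood test. The edgeR exact test and the DESeq2 Wald test also kept it, at adjusted p of 0.0206 and 0.0259. Fits with a tumor left out have less power, and in them the log2 fold change of MCM5 stayed between -0.44 and -0.27. The call, though not the direction, thus depended on the setting.

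The other subunits of the helicase did not pass the test. MCM2 (ENSG00000073111.14) had 132, 112 and 136 CPM in the HiGI tumors and 109, 132 and 112 CPM in the LoGI tumors, so that the diets overlapped. MCM3, MCM6 and MCM7 varied least of the 42 genes over the 6 tumors, with coefficients of variation of 5.79%, 5.67% and 6.25%. Their log2 fold changes were -0.031, -0.021 and 0.0041, and that of MCM4 was -0.020. Relative to the summed CPM of MCM2, MCM3, MCM4, MCM6 and MCM7, MCM5 stood at 8.16%, 8.85% and 7.66% in HiGI tumors 16, 20 and 26 and at 5.78%, 6.40% and 6.98% in LoGI tumors 19, 27 and 28. This comparison was made after the values of MCM5 had been seen and is a description, with no test.

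CDT1 (ENSG00000167513.9) and CDC6 (ENSG00000094804.12) encode the factors that load the helicase onto origins. CDT1 had 43.0, 53.0 and 46.7 CPM in the HiGI tumors and 30.4, 43.9 and 44.7 CPM in the LoGI tumors. The low value of LoGI tumor 19 set most of its log2 fold change of -0.26, which was -0.10 without that tumor. CDC6 was nearly level, with a log2 fold change of 0.024 and a 95% interval of -0.17 to 0.23 from DESeq2. UHRF1 (ENSG00000276043.5), which maintains DNA methylation behind the fork, had 41.3, 30.6 and 35.3 CPM in the HiGI tumors and 26.9, 36.8 and 26.4 CPM in the LoGI tumors. It varied more than the other members but NUSAP1, with a coefficient of variation of 18.0%, followed by CDT1 at 16.9%, and neither passed the test.

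PCNA (ENSG00000132646.11), the sliding clamp of the replicative polymerases, had 159, 144 and 155 CPM in the HiGI tumors and 134, 156 and 132 CPM in the LoGI tumors. LoGI tumor 27 lay among the HiGI tumors and LoGI tumors 19 and 28 lay below them. Its log2 fold change was -0.12, with an adjusted p of 0.691 in the edgeR quasi-likelihood test. CDC45 and GINS2, parts of the active helicase, had log2 fold changes of -0.081 and -0.010.

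Of the 4 genes of nucleotide supply, 3 were below 0 and 0 passed the adjusted test. TYMS (ENSG00000176890.16) encodes thymidylate synthase, which makes the thymidine nucleotide from its uracil counterpart. It had 30.2, 26.9 and 32.4 CPM in the HiGI tumors and 21.2, 27.6 and 24.0 CPM in the LoGI tumors. LoGI tumor 27 lay above HiGI tumor 20, so that the diets overlapped. The log2 fold change of TYMS was -0.30 with a DESeq2 standard error of 0.14, with an adjusted p of 0.258 in the edgeR quasi-likelihood test. TYMS overlaps a gene on the opposite strand, and since the strand setting of the counting is not given in the sources used here, its reads are uncertain. TK1 (ENSG00000167900.12), the thymidine kinase of the salvage pathway, had a log2 fold change of 0.025. The subunits of ribonucleotide reductase, RRM1 and RRM2, had -0.0065 and -0.19.

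Of the genes of mitotic entry, 0 of the 9 had an unadjusted p under 0.05 in the edgeR test, 5 were below 0 and 4 above. CDK1 (ENSG00000170312.16), the kinase that drives mitosis, had 86.7, 92.7 and 86.8 CPM in HiGI tumors 16, 20 and 26 and 98.4, 109 and 88.2 CPM in LoGI tumors 19, 27 and 28. LoGI tumor 28 lay below HiGI tumor 20, so that the diets overlapped. Its log2 fold change of 0.15 had the smallest p among the genes above 0, and its adjusted p was 0.572 in the edgeR quasi-likelihood test. Without LoGI tumor 27 the value was 0.079. CCNB1 (ENSG00000134057.15), the B cyclin that activates CDK1, had 171, 186 and 195 CPM in the HiGI tumors and 165, 204 and 171 CPM in the LoGI tumors. CCNB2 had a log2 fold change of 0.020. The transcription factor FOXM1 and the kinases PLK1, AURKA and AURKB had log2 fold changes of -0.093, -0.13, 0.018 and -0.13, those of CCNA2 and BIRC5 were 0.018 and -0.016, and none of these passed the test.

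The 7 genes of the kinetochore, the spindle checkpoint and mitotic exit had log2 fold changes from -0.22 to 0.0096, with 6 below 0 and 0 past the adjusted test. CDC20 (ENSG00000117399.14), the activator of the anaphase-promoting complex, had the lowest value. It had 164, 193 and 186 CPM in the HiGI tumors and 140, 166 and 161 CPM in the LoGI tumors, with LoGI tumor 27 just above HiGI tumor 16. Its adjusted p was 0.309 in the edgeR quasi-likelihood test. The checkpoint kinases BUB1, BUB1B and TTK had log2 fold changes of -0.091, -0.069 and 0.0096, the kinetochore proteins CENPE and CENPF had -0.044 and -0.044, and UBE2C, the ubiquitin-conjugating enzyme of mitotic exit, had -0.11.

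The spindle and chromosome genes comprised MKI67 and 5 others. MKI67 (ENSG00000148773.14) had 245, 248 and 263 CPM in HiGI tumors 16, 20 and 26 and 203, 242 and 190 CPM in LoGI tumors 19, 27 and 28. The diets did not overlap, but LoGI tumor 27 was next to the HiGI tumors. The mean was 252 ± 9.93 CPM (SD, n = 3) on the HiGI diet and 211 ± 26.9 CPM (SD, n = 3) on the LoGI diet. The log2 fold change was -0.25, with a 95% interval of -0.46 to -0.042 from DESeq2, and the adjusted p was 0.208 in the edgeR quasi-likelihood test. MKI67 did not pass the test. Its interval, which is not adjusted for the number of genes, held neither 0 nor a 2-fold effect. For the Ki67 antigen itself, the paper reported no difference in tumor staining between the diets.

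TPX2 (ENSG00000088325.16), which activates Aurora A on the spindle, also had all LoGI tumors below all HiGI tumors. It had 142, 145 and 151 CPM in the HiGI tumors and 118, 138 and 119 CPM in the LoGI tumors, with a log2 fold change of -0.22 and an adjusted p of 0.240 in the edgeR quasi-likelihood test. TOP2A (ENSG00000131747.15), the topoisomerase that untangles chromosomes before they part, had 204, 175 and 190 CPM in the HiGI tumors and 190, 222 and 160 CPM in the LoGI tumors. Its highest and lowest tumors were both LoGI tumors, and its log2 fold change was 0.0096. The motor genes KIF11 and KIF20A had -0.13 and -0.095, with overlapping diets.

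NUSAP1 (ENSG00000137804.14), a microtubule-binding protein of the mitotic spindle, was hardly counted. HiGI tumors 16, 20 and 26 gave 10, 10 and 7 reads and LoGI tumors 19, 27 and 28 gave 5, 13 and 12, or 57 in all, while the member with the next fewest reads, CCNE2, had at least 87 in every tumor. Its log2 fold change was 0.18 with a standard error of 0.66 from DESeq2, and a change of 2-fold in either direction was not detectable at this depth. Whether reads of this gene were assigned to another entry of the annotation was not tested.

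**Figure D2:**
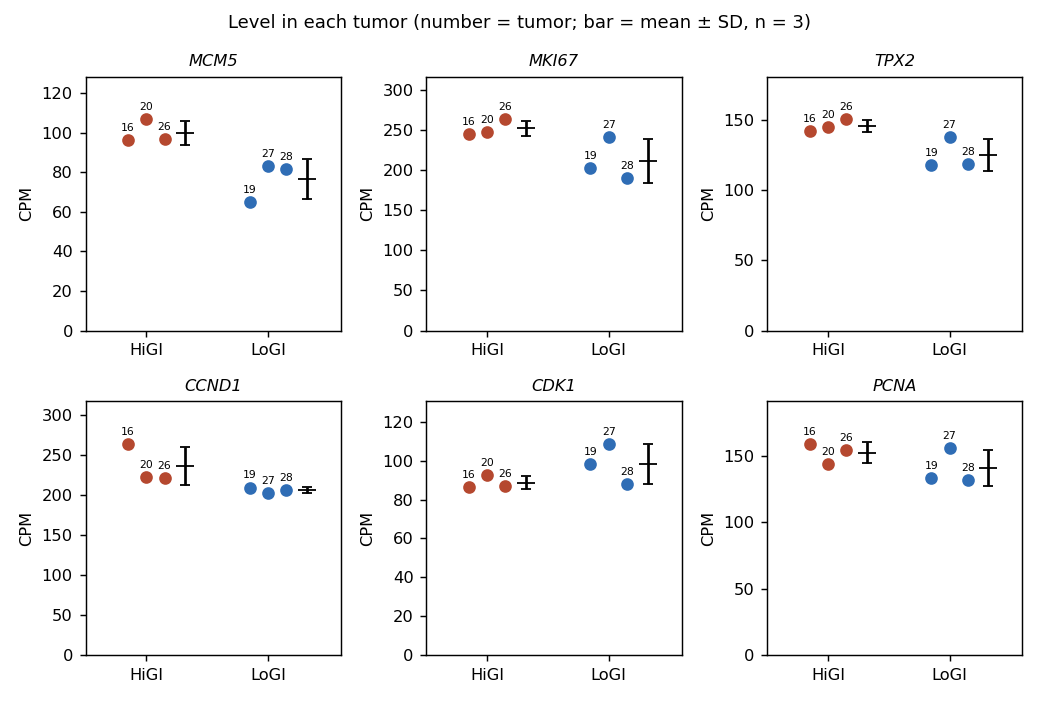
Level of 6 genes in CPM (y axis, from 0) in each HiGI tumor (red) and LoGI tumor (blue), with the tumor number above each point and the mean ± SD of 3 tumors beside them. For MCM5, MKI67, TPX2 and CCND1 the LoGI tumors all lie below the HiGI tumors, while CDK1 and PCNA overlap, and LoGI tumor 27 is the highest LoGI tumor for every gene shown except CCND1.

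The spread among tumors of one diet was set beside the difference between diets, and it was wide among the LoGI tumors. Leaving out NUSAP1, the range of log2 CPM among the 3 LoGI tumors was larger than the difference between the diet means for 38 of 41 genes, and the range among the 3 HiGI tumors was larger for 32 of 41. Over the 11038 genes at or above the same level, these shares were 75.7% and 77.1%, against 92.7% and 78.0% of the members, so that the members stood near the background among HiGI tumors. The median range was 0.30 on the log2 scale (1.23-fold) among LoGI tumors and 0.20 (1.15-fold) among HiGI tumors, and the median difference between diets was 0.088 (1.06-fold). Among the 11038 genes the 3 medians were 0.23, 0.23 and 0.10. The range among LoGI tumors was wider than that among HiGI tumors in 33 of the 41 genes (80.5%), against 48.7% of the 11038 genes.

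This spread came from the same tumors for most of the genes. LoGI tumor 27 was the highest LoGI tumor in 38 of the 41 genes (92.7%), where this held for 34.8% of the 11038 genes, and it lay above the mean log2 level of its diet in 40 of the 41, with CCND1 as the exception. LoGI tumor 19 lay above that mean in 6 genes and LoGI tumor 28 in 12. The deviations of a gene from its diet mean sum to 0, so a high LoGI tumor 27 sets the other LoGI tumors lower on average. Counts against the diet mean were not made over all genes. Across all 42 genes and 6 tumors, LoGI tumor 27 held the highest value of 19 genes, LoGI tumor 19 the lowest of 20 and LoGI tumor 28 the lowest of 15. HiGI tumors 20 and 26 held the lowest value of 0 genes, and HiGI tumor 16 of 6. Counts of highest and lowest values were not made over all genes either. Whether they are particular to the members was not tested.

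**Figure D3:**
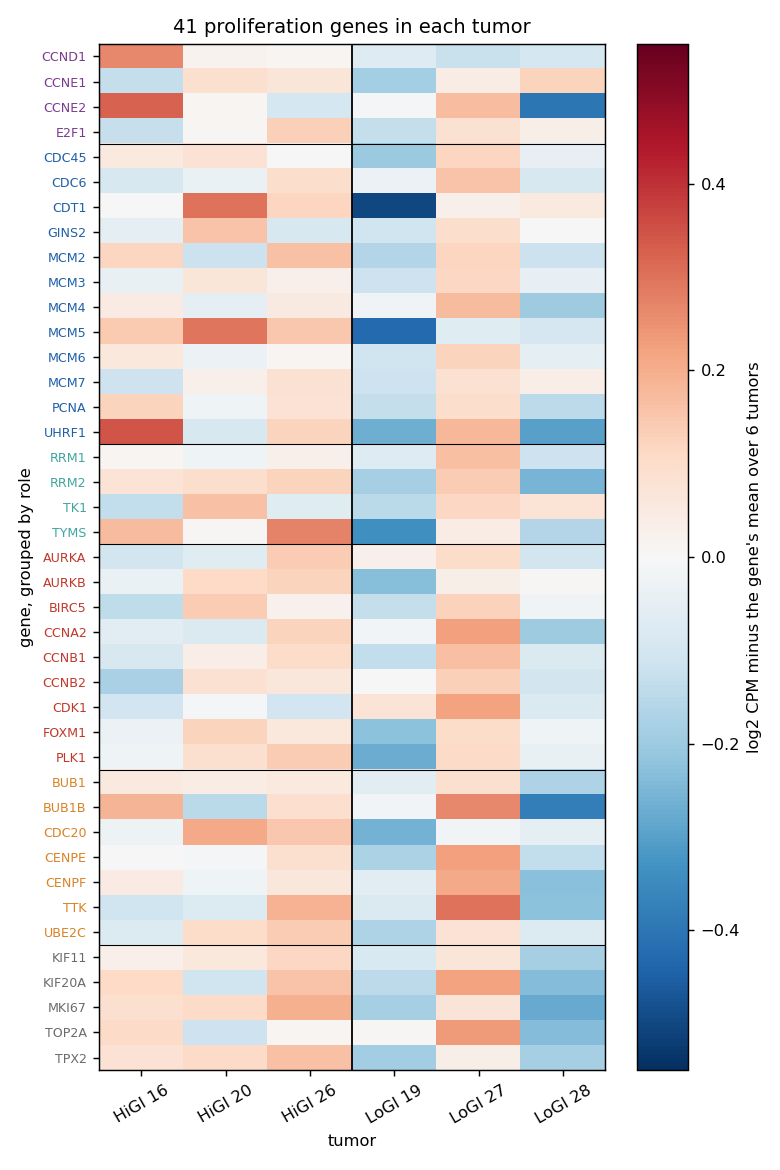
Log2 CPM of 41 genes (rows, in blocks by role, from top to bottom G1/S control, origin licensing and fork, nucleotide supply, mitotic entry and kinases, kinetochore, checkpoint and exit, spindle and chromosome structure) in 6 tumors (columns), minus the mean of the gene over the 6 tumors. Red is above and blue below that mean. The columns of LoGI tumor 27 (38 genes above the mean) and HiGI tumor 26 (36) are mostly red, those of LoGI tumors 19 (4) and 28 (6) mostly blue, and those of HiGI tumors 16 (21) and 20 (25) are mixed. These counts were not made over all genes.

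LoGI tumors 19 and 28 were both below the diet mean in 24 of the 41 genes, MKI67, TPX2 and RRM2 among them, and differed in their most extreme genes. In LoGI tumor 19 the largest deviations below the diet mean on the log2 scale, NUSAP1 apart, were those of CDT1 (-0.36), MCM5 (-0.23) and PLK1 (-0.20), which in LoGI tumor 28 were at 0.19, 0.10 and 0.029. In LoGI tumor 28 the largest were those of BUB1B (-0.34), CCNE2 (-0.32) and TOP2A (-0.24), which in LoGI tumor 19 were at 0.030, 0.068 and 0.0058. These genes are named because their deviations were the largest, with no test. Since deviations sum to 0 within a diet, a gene picked as low in a LoGI tumor is higher on average in the others. The contrast between LoGI tumors 19 and 28 in these genes is therefore partly set by how they were picked. Over the deviations of the 41 genes from their diet means, the first principal axis held 55.7% of the variance and the second 30.2%. On the first axis LoGI tumor 27 was at one end, LoGI tumors 28 and 19 were at the other, and the HiGI tumors lay between them. With LoGI tumor 27 at one end, the centering on diet means itself placed LoGI tumors 19 and 28 on the opposite side on average. Their place on this axis is therefore no separate result.

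**Figure D4:**
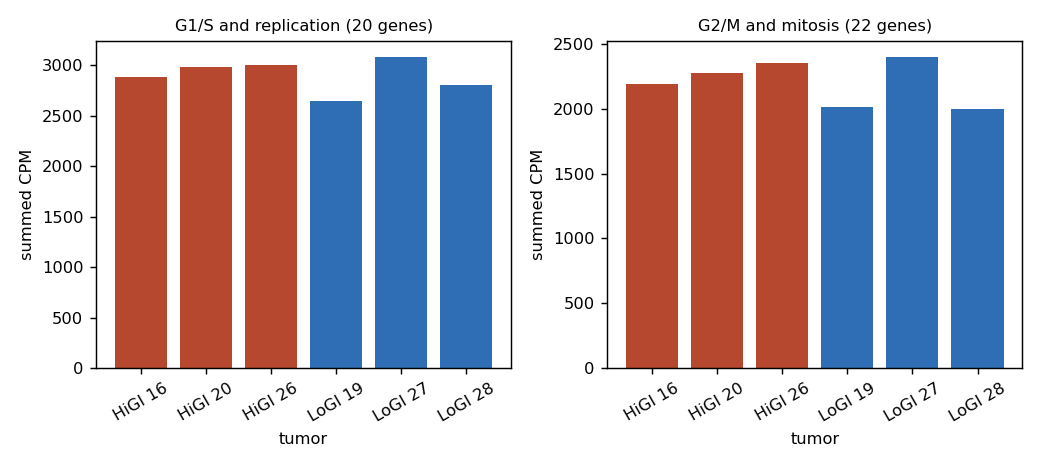
Summed CPM of the 20 genes of G1/S and replication (left) and the 22 genes of G2/M and mitosis (right) in each tumor, with HiGI tumors in red and LoGI tumors in blue and both axes starting at 0. LoGI tumor 27 is the highest of the 6 tumors in both panels, and LoGI tumors 19 and 28 are the lowest.

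The early and late genes of the cycle moved little relative to each other. The 20 genes of G1/S and replication summed to 2957 ± 60.1 CPM (SD, n = 3) in HiGI tumors and 2845 ± 221 CPM (SD, n = 3) in LoGI tumors. The 22 genes of G2/M and mitosis summed to 2271 ± 81.1 CPM (SD, n = 3) in HiGI tumors and 2137 ± 228 CPM (SD, n = 3) in LoGI tumors. In both sets LoGI tumor 27 was above all HiGI tumors, at 3083 and 2400 CPM, and LoGI tumors 19 and 28 were below all of them. The median log2 fold change was -0.056 for the early and also -0.056 for the late genes. The ratio of the late sum to the early sum was 0.758, 0.762 and 0.784 in HiGI tumors 16, 20 and 26 and 0.762, 0.778 and 0.712 in LoGI tumors 19, 27 and 28, so that LoGI tumor 28 had the least mitotic RNA per replication RNA and the other 5 tumors were close together.

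The proportion of CDK1 to MKI67, the first above and the second below 0 in log2 fold change, was also compared. CDK1 stood at 0.354, 0.374 and 0.330 of the CPM of MKI67 in HiGI tumors 16, 20 and 26 and at 0.485, 0.450 and 0.465 in LoGI tumors 19, 27 and 28. The diets did not overlap in this ratio, and LoGI tumor 27, the highest LoGI tumor for both genes, lay with the other LoGI tumors. The pair was chosen after the values were seen, so that this is a description, with no test. MKI67 alone already separated the diets, and how many other pairs would do so was not counted.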

How the data were processed

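RNA of 6 tumors was sequenced from stranded mRNA libraries (75 bp single-end). Reads were screened by the authors with BBMap against both genomes, and those that only mouse could explain were dropped. STAR and RSEM then gave the deposited read counts per gene on GRCh38.p13, as whole numbers and not normalized. How RSEM estimates became whole numbers, and whether strand was used, is not given in the sources used here. Reads that fit both genomes were kept, and their part in these genes was not tested. The sample records name mouse as the organism, and the identifiers are human. All 6 columns were matched to tumors by name, and 0 were left over.

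The members and lists were chosen with earlier results of these data known. Symbols came with the list of members, since the table holds identifiers only and no human name table, genome or sequence was used here. Lists of further cell cycle genes and of luminal and host cell markers were therefore not looked up, so the labelled cell type was not checked.

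Counts of genes with at least 10 reads in all were normalized by TMM and tested with edgeR 4.0.16 (glmQLFit, glmQLFTest) in R 4.3.3, with Benjamini-Hochberg adjustment over all genes. Standard errors and 95% intervals came from DESeq2 1.42.0. The test was run on simulated data first. Genes were named with values where the adjusted p was under 0.05, where they were among the 5 smallest p in each direction or the 3 largest or smallest coefficients of variation, or where they belonged to a fixed list of 10. Other members are given by their log2 fold changes. Library totals, the depth behind each value, lay between 18749813 and 21550812 reads. For a single value, 3 against 3 tumors allow no two-sided exact permutation p under 0.1. Replicates are separate tumors. No batch is given in the labels.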

Additional observations from a re-analysis of the deposited data

How the results depend on the processing

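Of 13 alternatives, 8 called none of the 42 genes at an adjusted p under 0.05 and 5 called MCM5 alone. The number of genes lower with no minimum fold change (1) was 0 with DESeq2 size factors, 0 with upper-quartile normalization and 0 with filterByExpr, where the adjusted p of MCM5 was 0.0551, 0.0696 and 0.0509 in the edgeR quasi-likelihood test, and ranged from 0 to 1 with a tumor left out. MCM5 kept its direction throughout, from -0.44 to -0.27 with a tumor left out. At the study's threshold the number was 0 in each direction under all 13. The median log2 fold change went from -0.16 to -0.0099 with a tumor left out, from -0.14 to -0.0076 for genes of G1/S and replication and from -0.16 to -0.0067 for genes of G2/M and mitosis. MKI67 went from -0.35 to -0.18 and passed under none. Between 23 and 40 genes were below 0, the latter also under library totals only, which moved the median of all genes to -0.037. Of the 23 genes named by rule, 11 changed sign in some alternative, none of them past the threshold. With filterByExpr NUSAP1 was not tested. The cause of the moved values was not tested. No paired analysis was possible because the tumors of the diets share no number. Few reads limit what can be said of NUSAP1.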
